A study of Mus musculus with 9 samples.

Results

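The proteasome subunit and assembly genes were followed in RNA pulled down from mouse liver with an antibody against HuR. They were taken as every gene name of the deposited exon table that begins with Psma, Psmb, Psmc, Psmd, Psme, Psmf or Psmg and a digit, with names containing -ps (pseudogenes) left out, which gave 49 of 33732 gene names. By name they comprised 8 genes of the 20S alpha ring, 7 of the 20S beta ring, 4 beta subunits of the immunoproteasome and thymoproteasome, 6 ATPases and 14 non-ATPases of the 19S particle, 5 activators, 1 inhibitor, 3 assembly chaperones and Psmc3ip. The last of these is caught by its name only: its product acts in meiotic recombination and is not a proteasome part. Psmd10 is counted with the non-ATPases by its name, though its product is a chaperone of 19S assembly. All 49 are annotated as protein-coding in GENCODE M21 (GRCm38, which is mm10).

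The study measured RNA immunoprecipitation libraries (RIP-seq) from whole healthy liver of wild-type C57BL/6 mice aged 8 weeks. The groups were HuR RIP (3 libraries), IgG RIP, the pull-down with control immunoglobulin (3 libraries), and Input, the lysate RNA (3 libraries, deposited as a single value per exon). Each pull-down was made from the low-salt lysate of 1 liver under native conditions (labels' protocols), that is, without crosslinking the RNA to protein. The series gives its purpose as the examination of RNAs targeted by HuR in this tissue. The library sizes, from the values' smallest steps, were 26.6, 26.3 and 26.9 M for HuR 1 to 3 and 15.9, 26.7 and 28.8 M for IgG 1 to 3 (M, mega, of reads). Levels are RPKM, reads per kilobase of merged exon and M library reads, and 3 reads on 1 kilobase correspond to 0.113, 0.114 and 0.111 RPKM in HuR 1 to 3 and to 0.189, 0.113 and 0.104 RPKM in IgG 1 to 3.

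The proteasome degrades proteins that carry ubiquitin chains. Its 20S core is a stack of alpha and beta rings, with the proteolytic sites in the beta rings, and the 19S particle on its ends recognises, unfolds and feeds in the substrate. HuR, encoded by Elavl1, binds RNA at runs of U and at AU-rich elements, mostly in 3′ UTRs and introns. In the liver, as in other tissues, constitutive proteasome subunits are made in all cells, while the immunoproteasome subunits are high in immune cells and induced by interferon.

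The whole group drew more reads in each HuR RIP library than in any IgG RIP library. The counts were 2953, 3103 and 2904 reads in HuR 1 to 3, against 1011, 682 and 749 reads in IgG 1 to 3. As a rate, the 49 genes took 111, 118 and 108 reads per M library reads in the HuR RIP libraries, against 63.8, 25.6 and 26.0 in the IgG RIP libraries. The HuR values lay close together, and the groups did not overlap. The protein-coding share of listed reads differed as well, with HuR 3 below IgG 1: it was 23.5%, 32.3% and 14.6% in HuR 1 to 3, against 18.2%, 13.2% and 9.67% in IgG 1 to 3. Among protein-coding reads alone, the proteasome genes took 1094, 1306 and 1218 per M in HuR 1 to 3, against 648, 437 and 588 per M in IgG 1 to 3. The Input value was 515 per M. All 3 HuR RIP libraries were therefore above all 3 IgG RIP libraries and Input on this scale too, and an exact permutation test of 3 against 3 libraries cannot give a two-sided p under 0.10, so none is given. A higher level in HuR RIP was not particular to these genes. The median RPKM of the protein-coding genes tested below was 1.89, 1.82 and 1.34 in HuR 1 to 3. In IgG 1 to 3 it was 1.06, 0.291 and 0.139, also without overlap.

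**Figure D1:**
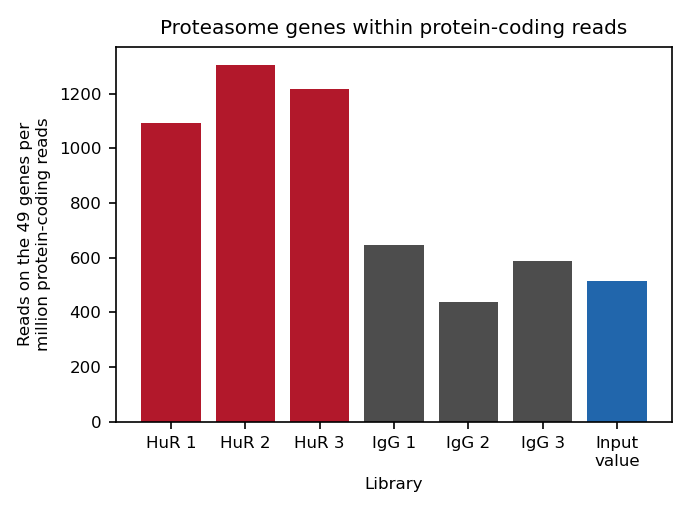
Reads on the 49 genes per M protein-coding reads (y axis) in each library (x axis), with HuR RIP in red, IgG RIP in grey and the single Input value in blue. The HuR RIP bars stand at 1094, 1306 and 1218, above the IgG RIP bars at 648, 437 and 588 and the Input bar at 515.

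Those reads lay on most of the genes in HuR RIP, with a different ranking from library to library. A read was found on 43, 39 and 47 of the 49 genes in HuR 1 to 3, and on 36, 39 and 22 in IgG 1 to 3. At least 10 reads were found on 28, 28 and 41 genes in HuR 1 to 3, and on 23, 22 and 9 in IgG 1 to 3. The 5 leading members held 47.0%, 45.6% and 34.2% of the group's reads in HuR 1 to 3, and 41.2%, 41.9% and 86.4% in IgG 1 to 3. Psmd11, a scaffold subunit of the 19S lid, led in all 3 HuR RIP libraries, with 523, 483 and 225 reads. The leading member was Psmd11 in IgG 1 (89.0 reads), Psme4 in IgG 2 (90 reads) and Psmd4 in IgG 3 (261 reads). Across the 49 genes, Spearman's rho between HuR RIP libraries was 0.24 (1 and 2), 0.32 (1 and 3) and 0.42 (2 and 3), and between IgG RIP libraries 0.34, 0.22 and 0.19 in the same order. These are descriptions over genes that share each library's depth.

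**Figure D2:**
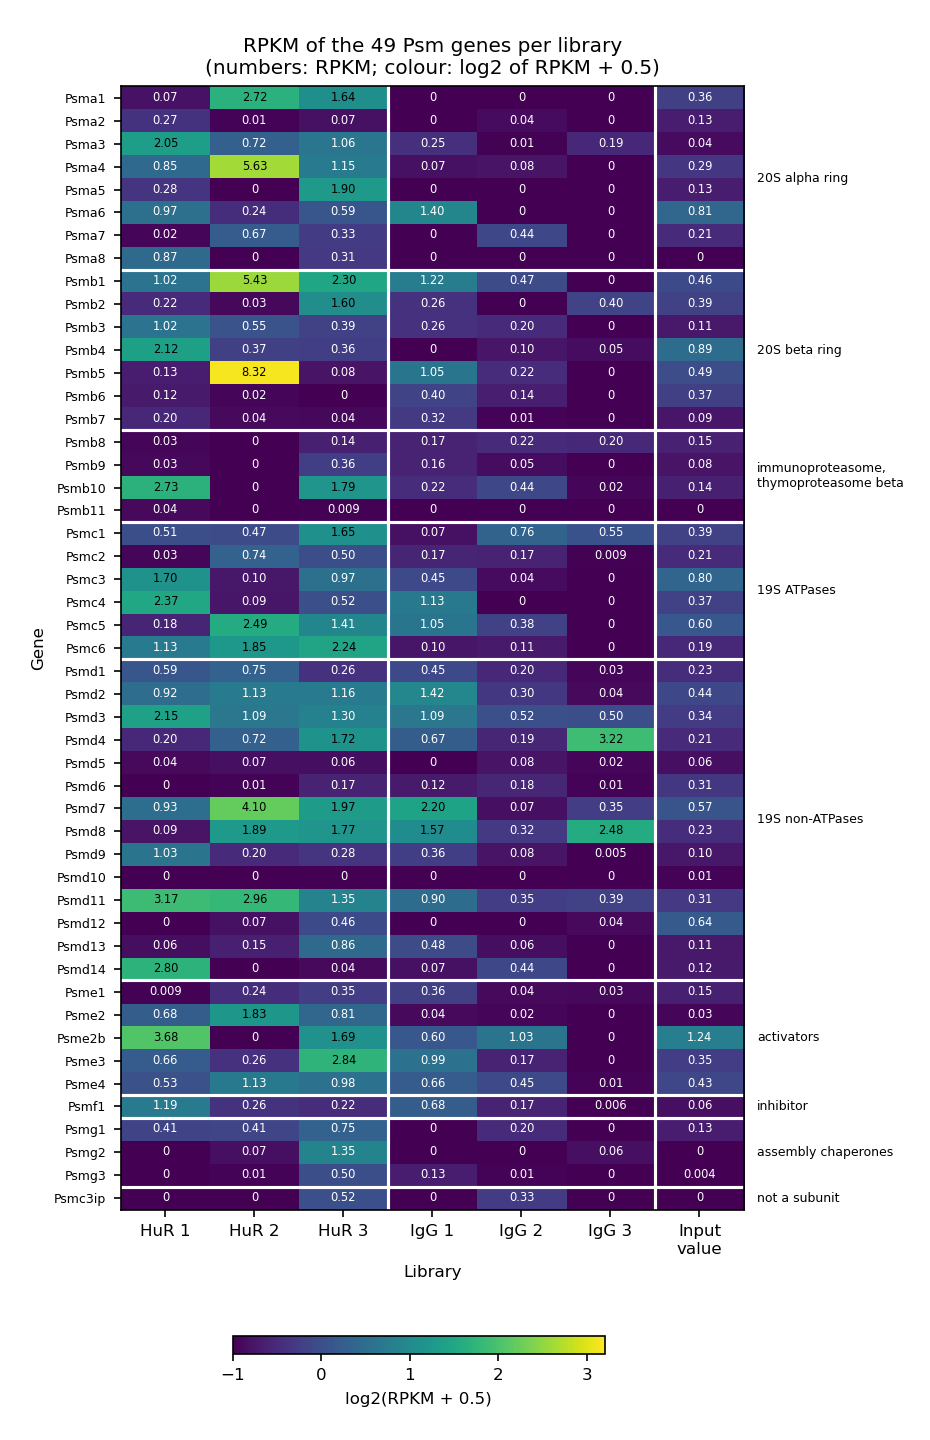
RPKM of the 49 genes (rows, grouped by role) in the HuR RIP libraries, the IgG RIP libraries and Input (columns). Numbers are RPKM and colour is log2(RPKM + 0.5). Few rows are bright in all 3 HuR RIP columns (Psmd11 at 3.17, 2.96 and 1.35 and Psmc6 at 1.13, 1.85 and 2.24), and several are bright in 1 column only, such as Psmb5 in HuR 2 and Psmd4 in IgG 3.

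No proteasome gene passed the test against IgG RIP. The test was limma on log2(RPKM + 0.5), Benjamini-Hochberg adjusted over 5510 genes with at least 0.5 RPKM in 3 or more RIP libraries, at a threshold of 0.05. It could be made for 18 of the 49. It called 0 of the 18 higher in HuR RIP, where 0.672% of all tested genes were called higher, and 0 of the 18 lower, where 0.127% were. With an unadjusted p below 0.05, 6 of the 18 stood higher (27.9% of all tested genes) and 0 were lower (3.19% of all tested genes). The median log2 fold change of the 18 was 0.82, and that of all tested genes was 0.92, so 7 of the 18 lay above the general median. A fold change above 0 was found for 16 of the 18 (88.9%), for 79.1% of all tested genes and for 90.4% of the tested protein-coding genes, whose median was 1.08. With each library centred at its median over tested genes, the median of the 18 was -0.28 and that of all tested genes -0.18. The filter requires 3 libraries, which the HuR RIP libraries alone can supply. Psma3, Psma4, Psmc6 and Psme2 passed it through them alone, with every IgG RIP value under 0.5 RPKM, so the filter had already chosen these 4 for a difference and their p-values are descriptions.

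The groups of 3 did not overlap, with HuR RIP higher, for 5 of the 18 tested members (31.3% of all tested genes; 4 of the 5 by the filter itself) and for 9 of the 48 members with any RIP read (18.0% of protein-coding genes with a RIP read). The 9 were Psma1, Psma3, Psma4, Psmb3, Psmb4, Psmc6, Psmd11, Psme2 and Psmg1. HuR RIP was lower without overlap for 0 of the 18 (3.48% of all tested genes) and for 1 of the 48, Psmb8 (0.741% of protein-coding genes with a RIP read). Psma1, Psmb3, Psmb4 and Psmg1 are named here because of these values.

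**Figure D3:**
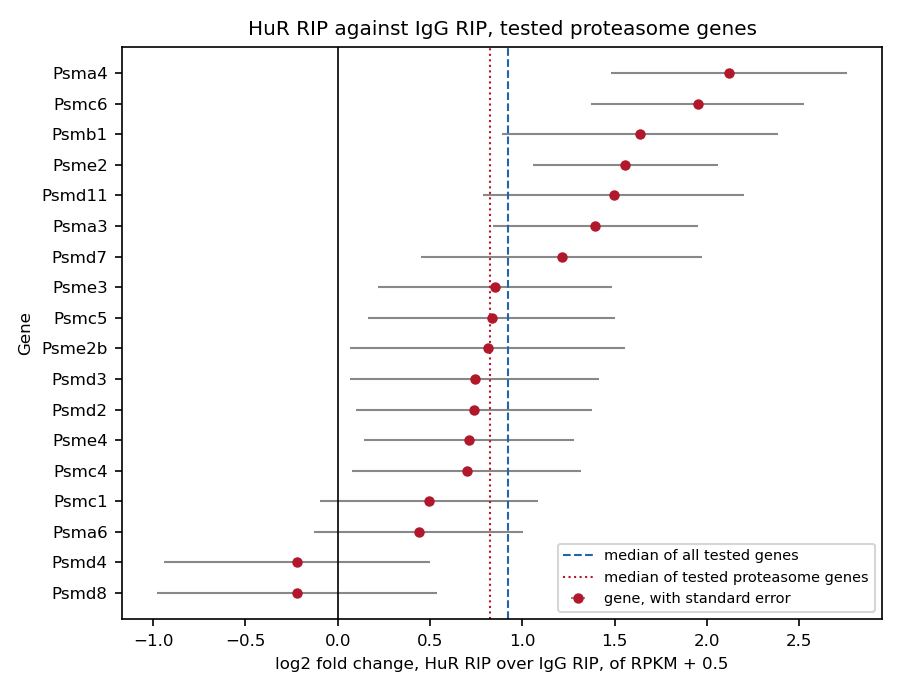
log2 fold change of RPKM + 0.5, HuR RIP over IgG RIP (x axis), for the 18 tested proteasome genes (y axis), with points for the limma estimate and bars for its standard error. The dotted line is their median (0.82) and the dashed line that of all 5510 tested genes (0.92). Psma4 (2.12) and Psmc6 (1.95) lead, and Psmd4 and Psmd8 (-0.22 each) lie below 0.

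HuR is known for binding runs of U, so the T-richest 30 bases of the annotated 3′ UTR are shown for the 5 tested members whose groups did not overlap, for Psme2b, the near-identical copy of Psme2, and for Psmb8, the member whose HuR RIP values were lower without overlap. They were read 5′ to 3′ on the gene's strand from the GENCODE M21 transcripts with the longest 3′ UTR, in DNA letters. Capitals mark the run TTTTTTT, the interrupted run TTTATTT, the AU-rich core ATTTA or its extended form TATTTAT, searched on the transcript strand with overlaps joined.
Psmd11, chr11:80472589-80472618, + strand, 26 T: gttcTTTTTTTTTTTTTTTTTTTccttttt
Psma3, chr12:70995036-70995065, + strand, 25 T: TTTATTTttgtgggTTTTTTTTTTTTTTTT
Psmc6, chr14:45348996-45349025, + strand, 21 T: tttcttatgacttattttatattttgtttt
Psma4, chr9:54957863-54957892, + strand, 17 T: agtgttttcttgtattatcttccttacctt
Psme2b, chr11:48945354-48945383, - strand, 13 T: gaaaataaatgATTTAtactttatgtatat
Psme2, chr14:55587442-55587471, - strand, 12 T: aggaaaataaatgATTTAtactttatgtat
Psmb8, chr17:34201313-34201342, + strand, 8 T: gactcagagacctgggactacttcagtctt

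A window as rich in T as that of Psmd11 was found in 6.47% of tested protein-coding genes, and as rich as that of Psma3 in 10.1%. For Psmc6 the share was 31.7%, for Psma4 67.7%, for Psme2 95.7% and for Psmb8 99.7%, around a median of 18 T. By this count the leading members ran from the high end of tested genes to the low end. A longer 3′ UTR offers more windows, and that of Psme2 has only 44 bases. Over the whole 3′ UTR, T made up 32.9% in Psmd11, 32.2% in Psma3, 36.95% in Psmc6, 33.2% in Psma4 and 34.1% in Psme2. It made up 20.7% in Psmb8. The median was 29.1% over tested protein-coding genes, 30.93% over the 49 proteasome genes and 31.2% over the 18 tested ones. The genes printed above were chosen by their RIP values. Members whose groups overlapped ran from 15.19% in Psmd1 to 39.66% in Psmd6. Whether the T share goes with the HuR RIP level was not tested. These are letters in a sequence, not measured binding sites.

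The 3′ UTRs of the proteasome genes were short. Their median length was 296 bases over the 49 genes and 441 bases over the 18 tested ones, against 1237 bases over the tested protein-coding genes. TTTTTTT was found in 15 of 49 (30.6%, against 47.3% of tested protein-coding genes), TTTATTT in 8 (16.3%, against 41.6%), ATTTA in 20 (40.8%, against 69.2%) and TATTTAT in 4 (8.16%, against 27.6%). In windows of equal length, the last 200 bases of the 3′ UTR, the shares over the 30 members with that many bases were nearer to those over 3600 tested genes. TTTTTTT was found in 3 of 30, against 472 of 3600, and TTTATTT in 2 of 30, against 431 of 3600. ATTTA was found in 7 of 30, against 1206 of 3600, and TATTTAT in 1 of 30, against 234 of 3600.

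Among the 49, annotated 3′ UTR length did not order the values. Spearman's rho of length with the log2 ratio of mean RPKM + 0.5, HuR over IgG, was -0.14, and with the mean HuR RIP level -0.11, as a description over genes. The median of that ratio was 0.63 for the 11 members with 1000 bases or more, 0.53 for the 19 with at least 200 but under 1000 bases and 0.77 for the 19 with fewer. Each of these 3 classes held 3 of the 9 genes whose groups did not overlap with HuR RIP higher. Lengths and motifs are those of the longest annotated 3′ UTR, parts of which can lie outside the listed exons. For Psmb1 and Psmd12, the T-richest window lies outside them, so these lengths need not be those of the measured 3′ ends.

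**Figure D4:**
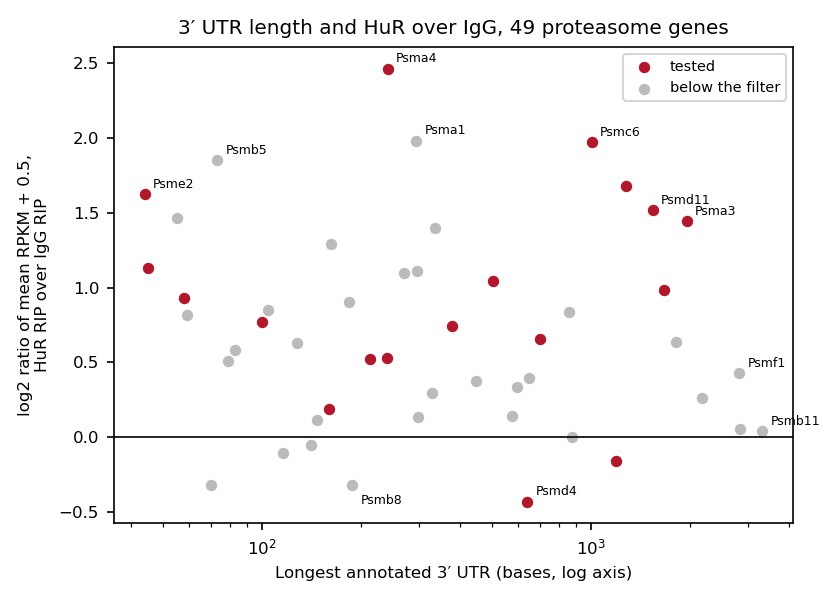
Length of the longest annotated 3′ UTR in bases (x axis, log scale) and log2 ratio of mean RPKM + 0.5, HuR RIP over IgG RIP (y axis), for the 49 genes, with the 18 tested ones in red and the others in grey. High ratios stand at both ends of the axis, with Psme2 (44 bases) at the left and Psmc6 (1004 bases), Psmd11 (1539 bases) and Psma3 (1952 bases) at the right.

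The 20S alpha ring, whose subunits gate the entrance of the core, had fewer genes without a read in HuR RIP than in IgG RIP. Of the 8, 0, 2 and 0 had no read in HuR 1 to 3, against 5, 4 and 7 in IgG 1 to 3. Over all 49 genes it was 6, 10 and 2 in HuR 1 to 3, against 13, 10 and 27 in IgG 1 to 3. IgG 1 was the smallest library (15.9 M reads), and the share over all genes was not taken. The RPKM summed over the 8 alpha ring genes were 5.37, 9.98 and 7.06 in HuR 1 to 3, against 1.72, 0.577 and 0.194 in IgG 1 to 3, and 1.98 in Input. Psma4 (chr9:54950790-54958030) had 0.849, 5.63 and 1.15 RPKM in HuR 1 to 3, against 0.0695, 0.0827 and 0 in IgG 1 to 3. Every HuR RIP library was above every IgG RIP library, and HuR 2 stood highest. Its means were 2.54 ± 2.68 RPKM over HuR RIP and 0.0507 ± 0.0444 RPKM over IgG RIP (SD, n = 3 each), and the log2 fold change was 2.12 (SE 0.64, limma adjusted p = 0.0700). Listed exons of another gene name lie over part of Psma4, as over 15 of the 49 members (3 of the 18 tested: Psma4, Psmd3 and Psme2b). Whether strand was used in counting is not given in the sources used here.

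Psma3 (chr12:70978733-70996347) had 2.05, 0.720 and 1.06 RPKM in HuR 1 to 3, against 0.252, 0.0100 and 0.194 in IgG 1 to 3, and 0.0449 in Input. The groups did not overlap, and the log2 fold change was 1.40 (SE 0.56, limma adjusted p = 0.108). Psma6 had 0.966, 0.236 and 0.593 RPKM in HuR 1 to 3, against 1.40, 0 and 0 in IgG 1 to 3. Its highest value was that of IgG 1, and its log2 fold change was 0.44 (SE 0.56, limma adjusted p = 0.575).

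Psma1, below the filter, had 0.0746, 2.72 and 1.64 RPKM in HuR 1 to 3 and 0 in each IgG RIP library. Set against 3 reads over the IgG group, with the libraries of each group pooled, its 296 HuR RIP reads correspond to 88.2-fold. Such a fold leaves out the spread between libraries. Of the 180 reads in HuR 2, 96 lay in an exon block without a read in any other RIP library. Psma5 likewise had no IgG RIP read, and its pooled reads correspond to 16.7-fold. It had 0.275, 0 and 1.90 RPKM in HuR 1 to 3, so the groups overlapped. Of its 56 reads, 49 lay in the terminal exon block in HuR 3. Psma8, which replaces an alpha subunit in the testis, had 30 HuR RIP reads in HuR 1 and 3 only, none in IgG RIP, and was listed at 0 in Input. A value of 0 shows only that the level was below what 3 reads would give.

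In the 20S beta ring the values of the genes for the proteolytic sites differed between libraries of the same group. Psmb5, the chymotrypsin-like site, had 0.125, 8.32 and 0.0827 RPKM in HuR 1 to 3, against 1.05, 0.223 and 0 in IgG 1 to 3. The value of HuR 2 was the highest of any member in any library. Of its 197 reads there, 163 lay in the first exon block (chr14:54617794-54618022), which held no read in any other RIP library. The pseudogene Psmb5-ps, outside the group, also had most of its reads in HuR 2, with 48 there, 5 in IgG 2 and none in the other RIP libraries.

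Psmb6, the caspase-like site, had 0.120, 0.0203 and 0 RPKM in HuR 1 to 3, against 0.404, 0.140 and 0 in IgG 1 to 3. Psmb7, the trypsin-like site, had 0.195, 0.0359 and 0.0351 RPKM in HuR 1 to 3, against 0.318, 0.0118 and 0 in IgG 1 to 3. Both overlapped between groups, and neither reached the filter. Psmb1, a structural beta subunit and the only tested member of the ring, had 1.02, 5.43 and 2.30 RPKM in HuR 1 to 3, against 1.22, 0.471 and 0 in IgG 1 to 3. IgG 1 stood above HuR 1, and the log2 fold change was 1.64 (SE 0.75, limma adjusted p = 0.143). Psmb3 had 1.02, 0.550 and 0.387 RPKM in HuR 1 to 3, against 0.257, 0.204 and 0 in IgG 1 to 3, and Psmb4 had 2.12, 0.370 and 0.362 against 0, 0.0963 and 0.0532, without overlap in either.

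Of the immunoproteasome subunits, Psmb8 and Psmb9 were under 0.5 RPKM in every library. Psmb8, which takes the place of Psmb5, had 0.0291, 0 and 0.144 RPKM in HuR 1 to 3, against 0.171, 0.218 and 0.201 in IgG 1 to 3, and 0.150 in Input. The means were 0.0577 ± 0.0761 RPKM over HuR RIP and 0.197 ± 0.0238 RPKM over IgG RIP (SD, n = 3 each), from 12 and 37 reads. Psmb8 was below the filter of the main test. Psmb9, which takes the place of Psmb6, had 0.0308, 0 and 0.355 RPKM in HuR 1 to 3, against 0.164, 0.0513 and 0 in IgG 1 to 3. Psmb10, which takes the place of Psmb7, had 2.73, 0 and 1.79 RPKM in HuR 1 to 3, against 0.222, 0.440 and 0.0203 in IgG 1 to 3. No read fell on any of Psmb8 to Psmb11 in HuR 2, where the constitutive beta ring had its highest sum (14.8 RPKM, against 4.81 and 4.77 in HuR 1 and 3). Psmb5 and Psmb1 carried that sum: without them the other 5 genes summed to 3.67, 1.01 and 2.39 RPKM in HuR 1 to 3.

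Marker lists of other liver cells differed in where HuR 2 stood. The summed RPKM of 6 Kupffer cell markers was 4.71, 11.9 and 9.20 in HuR 1 to 3, against 6.74, 2.71 and 8.47 in IgG 1 to 3, and only IgG 3 had any of them at 0 (2 of the 6). HuR 2, without a read on the immunoproteasome genes, had the highest sum of these macrophage genes and of 6 sinusoidal endothelium markers (2.17, 5.03 and 3.43 in HuR 1 to 3, against 4.45, 0.597 and 3.91 in IgG 1 to 3). It had the lowest HuR RIP sum of 5 cholangiocyte markers (13.1, 3.78 and 7.62 in HuR 1 to 3, against 0.662, 0.575 and 0.0343 in IgG 1 to 3) and of 5 red cell markers (172, 64.5 and 134 in HuR 1 to 3, against 234, 101 and 98.7 in IgG 1 to 3). The sum of 6 stellate cell markers was 8.90, 4.91 and 2.16 in HuR 1 to 3, against 3.22, 0.575 and 5.62 in IgG 1 to 3. The sum of 5 hepatocyte markers was 734, 816 and 693 RPKM in HuR 1 to 3, against 652, 250 and 572 in IgG 1 to 3, none at 0 in any library. The cholangiocyte and hepatocyte sums were higher in HuR RIP without overlap, as the reads of the whole group were, and their part in the results was not tested. Single genes differed within both lists. Of the hepatocyte markers, Alb and Ass1 did not overlap, while Apoa1, Ttr and Cps1 did. Of the cholangiocyte markers, only Spp1 did not overlap. It had 10.1, 1.48 and 6.68 RPKM in HuR 1 to 3, against 0, 0.575 and 0 in IgG 1 to 3. In whole tissue, fewer cells of a type and less RNA per cell cannot be told apart.

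Among the 19S ATPases, the ring that unfolds the substrate, Psmc6 had the smallest adjusted p of the whole group. Psmc6 (chr14:45329788-45349705) had 1.13, 1.85 and 2.24 RPKM in HuR 1 to 3, against 0.0961, 0.114 and 0 in IgG 1 to 3, and 0.189 in Input. All 3 HuR RIP values lay far above the IgG RIP values, with means of 1.74 ± 0.562 RPKM over HuR RIP and 0.0701 ± 0.0614 RPKM over IgG RIP (SD, n = 3 each). The log2 fold change was 1.95 (SE 0.57, limma adjusted p = 0.0671). It passed the threshold without IgG 1 (limma adjusted p = 0.0475, in a range of 0.0203 to 0.540 over the alternatives), where 1 of the 18 and 13.1% of all tested genes were called higher. As it passed the filter through HuR RIP alone, this is no support. In the fit limited to protein-coding genes, Psma4, Psmc6 and Psme2 were called higher, 3 of the 18, where 18.5% of the 3943 genes were. Their limma adjusted p there were 0.0145, 0.0203 and 0.0303 in that order, against highest values over the alternatives of 0.540, 0.540 and 0.615. All 3 had likewise passed the filter through HuR RIP alone.

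The other ATPases overlapped between groups. Psmc5 had 0.178, 2.49 and 1.41 RPKM in HuR 1 to 3, against 1.05, 0.385 and 0 in IgG 1 to 3, with a log2 fold change of 0.83 (SE 0.67, limma adjusted p = 0.371). Psmc4 had 2.37, 0.0942 and 0.517 RPKM in HuR 1 to 3, against 1.13, 0 and 0 in IgG 1 to 3, with a log2 fold change of 0.70 (SE 0.62, limma adjusted p = 0.418). Of its HuR 1 reads, 123 lay in a single exon block that held no read in any other RIP library. Psmc1 had 0.506, 0.469 and 1.65 RPKM in HuR 1 to 3, against 0.0704, 0.758 and 0.545 in IgG 1 to 3, the lowest fold change of the ring (0.49, SE 0.59, limma adjusted p = 0.542). Psmc2 and Psmc3 were below the filter.

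The 19S non-ATPases hold the receptors for ubiquitin, the enzyme that removes it and the scaffold of the lid. Psmd11 (chr11:80428615-80473248) had 3.17, 2.96 and 1.35 RPKM in HuR 1 to 3, against 0.905, 0.345 and 0.386 in IgG 1 to 3, and 0.312 in Input. The groups did not overlap, with means of 2.49 ± 0.996 RPKM over HuR RIP and 0.545 ± 0.312 RPKM over IgG RIP (SD, n = 3 each). The log2 fold change was 1.49 (SE 0.71, limma adjusted p = 0.153). Its IgG RIP values were above Input as well, in all 3 libraries.

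Psmd7, a lid subunit that pairs with the deubiquitinase, had 0.931, 4.10 and 1.97 RPKM in HuR 1 to 3, against 2.20, 0.0664 and 0.353 in IgG 1 to 3, with a log2 fold change of 1.21 (SE 0.76, limma adjusted p = 0.262). Psmd2, the large scaffold of the base, had 0.916, 1.13 and 1.16 RPKM in HuR 1 to 3, against 1.42, 0.302 and 0.0360 in IgG 1 to 3 (0.74, SE 0.64, limma adjusted p = 0.403). IgG 1 overlapped with HuR RIP in both.

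The ubiquitin receptor Psmd4 and the lid subunit Psmd8 were the only tested members with a fold change below 0. Psmd4 had 0.201, 0.717 and 1.72 RPKM in HuR 1 to 3, against 0.674, 0.187 and 3.22 in IgG 1 to 3 (-0.22, SE 0.72, limma adjusted p = 0.832). Psmd8 had 0.0863, 1.89 and 1.77 RPKM in HuR 1 to 3, against 1.57, 0.319 and 2.49 in IgG 1 to 3 (-0.22, SE 0.76, limma adjusted p = 0.839). IgG 3 was the highest library for both, and without it their log2 fold changes were 0.46 and 0.18. All 261 reads of Psmd4 in IgG 3 lay in exon block 4 of 5, which had none in the other 5 RIP libraries. Psmd14, the deubiquitinase, had 2.80, 0 and 0.0399 RPKM in HuR 1 to 3, against 0.0677, 0.443 and 0 in IgG 1 to 3. Psmd10, a chaperone of 19S assembly, had no read in any RIP library and 0.0138 RPKM in Input.

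The activators open the core in place of the 19S particle. Psme2, a subunit of the interferon-induced ring activator, had 0.677, 1.83 and 0.813 RPKM in HuR 1 to 3, against 0.0398, 0.0242 and 0 in IgG 1 to 3, and 0.0262 in Input. The groups did not overlap, and the log2 fold change was 1.56 (SE 0.50, limma adjusted p = 0.0743). The single-exon copy Psme2b had 3.68, 0 and 1.69 RPKM in HuR 1 to 3, against 0.603, 1.03 and 0 in IgG 1 to 3, and 1.24 in Input (0.81, SE 0.74, limma adjusted p = 0.429). The transcripts of both are identical in 99.4% of 794 aligned positions, so reads of either can be assigned to the other, and the level of each is uncertain.

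Psme1, the partner of Psme2 in that ring, had 0.00920, 0.236 and 0.349 RPKM in HuR 1 to 3, against 0.365, 0.0367 and 0.0333 in IgG 1 to 3. Psme3, which forms the nuclear ring activator, had 0.661, 0.256 and 2.84 RPKM in HuR 1 to 3, against 0.991, 0.168 and 0 in IgG 1 to 3 (0.85, SE 0.63, limma adjusted p = 0.339). Psme4, the large single-chain activator, had 0.531, 1.13 and 0.985 RPKM in HuR 1 to 3, against 0.662, 0.454 and 0.0140 in IgG 1 to 3 (0.71, SE 0.57, limma adjusted p = 0.372). All 3 overlapped between groups, with IgG 1 above the lowest HuR RIP library.

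The inhibitor Psmf1 had 1.19, 0.262 and 0.220 RPKM in HuR 1 to 3, against 0.684, 0.166 and 0.00570 in IgG 1 to 3, and 0.0610 in Input. Among the chaperones of 20S assembly, Psmg1 had 0.410, 0.415 and 0.754 RPKM in HuR 1 to 3, against 0, 0.205 and 0 in IgG 1 to 3. Psmg2 and Psmg3 were highest in HuR 3, at 1.35 and 0.501 RPKM. Psmg1 alone of these did not overlap between groups. Psmc3ip had reads in HuR 3 (0.518 RPKM) and IgG 2 (0.328 RPKM) only.

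Within the genes, the reads came from few exons. Listed exons that overlap were merged into blocks, and 43 of the 49 genes had 3 blocks or more. In 35 of the 43, 1 block held over 50% of the gene's RIP reads, and in 26 of these 35 that block was the 3′-terminal one, where the 3′ UTR usually lies. The same held for protein-coding genes in general: among genes with at least 10 reads, the median share of the leading block was 96.6%, 91.5% and 92.3% for the proteasome genes in HuR 1 to 3, and 94.7%, 88.8% and 90.0% for all protein-coding genes in HuR 1 to 3. A terminal block with at least 10 reads was found for 36 of 43 genes in 1 or more HuR RIP libraries and for 20 in 1 or more IgG RIP libraries. Over all protein-coding genes it was found for 64.8% in HuR RIP and 40.7% in IgG RIP.

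Recurrence between libraries separated terminal blocks from the others. Of the 36 terminal blocks, 10 had at least 10 reads in all 3 HuR RIP libraries and 16 in 1 only. Of 58 other blocks with at least 10 reads in HuR RIP, 0 had them in all 3 libraries and 48 in 1 only. For all protein-coding genes, 44.0% of such terminal blocks and 9.11% of such other blocks recurred in all 3 HuR RIP libraries. The 10 recurring genes were Psma3, Psma4, Psmb1, Psmb3, Psmc6, Psmd11, Psmd2, Psmd3, Psme3 and Psmf1. In IgG RIP, 3 of 20 terminal blocks and 0 of 36 others recurred in all 3 libraries, beside 18.7% and 7.29% over all protein-coding genes.

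The terminal block of Psmd11 (chr11:80471452-80473248) had 523, 381 and 224 reads in HuR 1 to 3, against 71.0, 42.0 and 69 in IgG 1 to 3. That of Psma3 (chr12:70994351-70996347) had 204, 71.0 and 103 reads in HuR 1 to 3, against 15, 1 and 10 in IgG 1 to 3. That of Psmd3, a lid subunit, had 153, 118 and 156 reads in HuR 1 to 3, against 38, 44 and 70 in IgG 1 to 3. None of the 3 overlapped between groups. The T-rich windows of Psmd11 and Psma3 printed above lie within these blocks.

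For 7 genes the block with the most reads had them in 1 library only: Psma7, Psmb5, Psmb6, Psmc4, Psmd14, Psmd4 and Psme2. Psmd14 had 108 reads in exon block 3 in HuR 1 and none there in the other RIP libraries. The leading block of Psme2, an internal one, had 70 reads in HuR 2 only, so the non-overlap of that gene rests on different exons in different libraries.

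**Figure D5:**
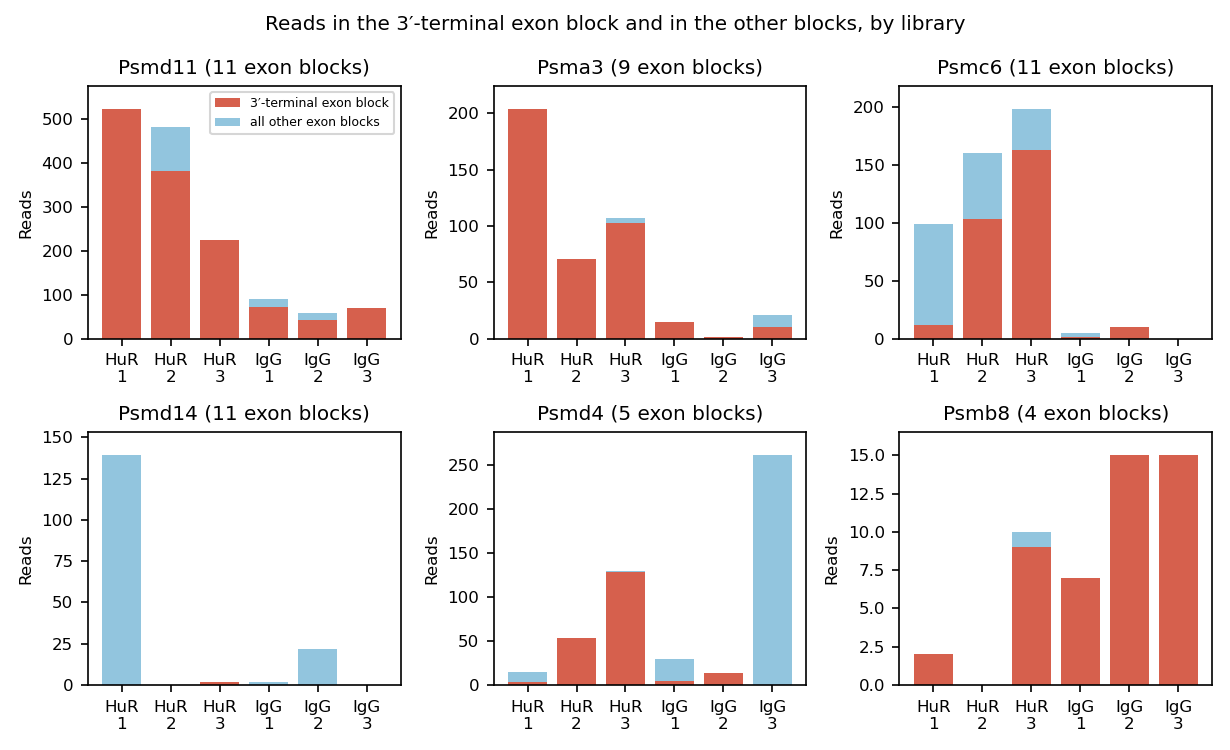
Reads (y axis) in the 3′-terminal exon block (red) and in all other blocks (blue) of 6 genes, for HuR 1 to 3 and IgG 1 to 3 (x axis), with a separate y scale for each gene. Terminal reads stand highest in HuR RIP for Psmd11 and Psma3. Psmd14 in HuR 1 and Psmd4 in IgG 3 are tall bars of other blocks in 1 library.

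In the authors' deposited table, 437 of the 743 exons of these genes carry a p-value for HuR against IgG. In the authors' deposited table, 8 of them are under 0.05, all higher in HuR, where 2.04% of all exons with a p are under 0.05 and higher in HuR. They belong to Psma3, Psmd3, Psmd1 and Psmd11. In the authors' deposited table the lowest p of the group is 0.00149, for a 571-base exon in the terminal block of Psma3, its q is 0.541, and the lowest q of any exon is 0.110.

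Against Input, which has no replicates of its own, the values are given without a test. The HuR RIP level was above the Input value in all 3 libraries for 11 of the 18 tested members (68.9% of all tested genes) and for 16 of the 48 with a RIP read (33.6% of protein-coding genes). With libraries and Input centred at their medians it was 1 of the 18, and the median log2 ratio turned to -0.30, against 0.96 without centring. It was below Input in all 3 for 0 of the 18 (3.9% of all tested genes) and 4 of the 48 (8.85% of protein-coding genes). In IgG RIP the level was above Input in all 3 libraries for 3 of the 18 (20.7%) and 4 of the 48 (5.55%), and below it in all 3 for 3 of the 18 (6.88%) and 11 of the 48 (17.6%). The median log2 ratio of the 18 to Input, of RPKM + 0.5, was 0.63, 1.04 and 1.20 in HuR 1 to 3, and 0.63, -0.13 and -0.56 in IgG 1 to 3. Over all tested genes it was 1.38, 1.31 and 1.08 in HuR 1 to 3, and 0.91, -0.08 and -0.18 in IgG 1 to 3. The filter chose tested genes by their RIP level and not by Input, which favours values above Input. Psma3, Psma4, Psmc6 and Psme2, which passed it through HuR RIP alone, are among the 11. Over all members, tested or not, the HuR RIP median ratio was 0.34, against 0.96 over the 18. Over the 49 genes, Spearman's rho with the Input level was 0.51 for the mean HuR RIP level and 0.55 for the mean IgG RIP level.

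Genes that work with the proteasome were described by 4 lists, and none of their tested members was called in either direction. Of factors associated with the proteasome, 8 of 17 were tested, with a median log2 fold change of 1.58. Nfe2l1, the transcription factor that raises proteasome genes when the proteasome is inhibited, had 7.77, 10.9 and 4.52 RPKM in HuR 1 to 3, against 3.06, 0.635 and 0.287 in IgG 1 to 3. Its log2 fold change was 2.41 (SE 0.81, limma adjusted p = 0.0815), without overlap. Rad23b, which carries ubiquitinated proteins to the proteasome, was at 1.70 (SE 0.75, limma adjusted p = 0.131), and Ddi2, the protease that processes Nfe2l1, at 1.78 (SE 0.79, limma adjusted p = 0.132).

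Of p97 (Vcp), the ATPase that extracts ubiquitinated proteins, and its cofactors, 5 of 8 were tested, with a median of 1.30. The values were 2.30 for Ubxn4 (limma adjusted p = 0.0706), 1.48 for Vcp and 1.30 for Nploc4. Of ubiquitin and its activating and conjugating enzymes, 10 of 14 were tested, with a median of 1.11. The values were 1.59 for Ube2d3, 1.73 for Ube2r2 and 1.26 for Ube2k. Of the COP9 signalosome and eIF3 subunits, relatives of the lid, 4 of 11 were tested, with a median of 0.64. The values were 1.08 for Cops8, 0.67 for Cops2 and 0.60 for Cops7a. All 27 tested genes of the 4 lists had a fold change above 0, beside 79.1% of all tested genes and 90.4% of the tested protein-coding genes. Among them, Ube2d3, Ube3a, Ube4b, Cops7a and Cops8 passed the filter through HuR RIP alone, which fixed their direction. That count is therefore a description. The genes named from each list are those with its smallest p.

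Elavl1 itself had 0.950, 0.304 and 0.990 RPKM in HuR 1 to 3, against 0.523, 0.0253 and 0.0134 in IgG 1 to 3, with IgG 1 above HuR 2. Protein was not measured, so the pull-down of HuR has no check in these data.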

How the data were processed

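RIP-seq libraries were processed with Bowtie2 and featureCounts on mm10, per the submitters' processing notes; their versions: not given in the sources used here. Deposited by the authors were RPKM per exon, log2 ratios of RPKM + 1 to Input + 1, and a p-value and q-value per exon, by a test that no source used here names. Decimal marks in the deposited RPKM were damaged, and each value was restored from its digits against the deposited log2 ratios: of 138826 distinct lines, all matched in 6 ratios, 1 with more than 1 reading. Numbers in the log2 ratio columns follow file order, so library names were taken from the RPKM columns. The Input column is the authors' value, a mean or a pool of 3 libraries.

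Exon RPKM times length, summed per gene and divided by merged exon length, gave gene RPKM. The smallest step between values gave library sizes, and over 99.4% of isolated exon values were then whole reads within 0.05 of a read. Reads split between overlapping exons need not be whole. Reads are not independent molecules, so floors of 3 reads cover counting error only. Of the listed exons, 99.3% were found in GENCODE M21, and 4 pseudogene names were left out.

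limma 3.58.1 (R 4.3.3, trend and robust moderation, two-sided) compared HuR RIP with IgG RIP on log2(RPKM + 0.5), which understates the change of low genes. A run on simulated data used changes much larger than those of the members. It therefore does not show whether the test would find changes of their size. Other steps used Python 3.11.15, pandas 2.3.3, numpy 2.4.6 and matplotlib 3.10.9. Members with values in every library are those with the 12 smallest p, the highest and lowest per role, any fold change below 0, the proteolytic and immunoproteasome sites, the activators, the inhibitor and Psmc3ip; others were added after their values were seen. Members, lists and rules were chosen with earlier results of these data known. Alternatives were other scalings, filters, pseudocounts, no trend, a replicate block, protein-coding genes only, exons over small RNA genes left out, and libraries left out. The T and B cell marker list is not reported here.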

Additional observations from a re-analysis of the deposited data

How the results depend on the processing

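The count of proteasome genes called against IgG RIP was 0 under the alternatives, except 3 higher with protein-coding genes only and 0 to 1 higher when a library was left out (1 without IgG 1, Psmc6), all genes that passed the filter through HuR RIP alone. Their median log2 fold change of 0.82 turned to -0.28 when libraries were centred at their median (all tested genes -0.18), was 0.14 under quantile normalization and 1.48 with a pseudocount of 0.1, and ran from 0.56 to 1.26 with a library left out. Under centring, Psma6 (-0.66), Psmc1 (-0.61), Psmc4 (-0.40), Psme4 (-0.39), Psmd2 (-0.36), Psmd3 (-0.36), Psme2b (-0.29), Psmc5 (-0.27) and Psme3 (-0.25) turned below 0. So did Psma6 (-0.064), Psmc1 (-0.45), Psmd2 (-0.30), Psmd3 (-0.31), Psme2b (-0.013) and Psme4 (-0.28) under quantile normalization, Psmc1 (-0.53) and Psmd3 (-0.32) under TMM-like factors, and Psmc1 (-0.22) without HuR 3 and IgG 1. Psmd4 (0.19) and Psmd8 (0.44) turned above 0 without HuR 1, and likewise (0.46 and 0.18) without IgG 3, in a range from -0.76 to 0.46 and from -0.76 to 0.44 with a library left out. The direction of these genes therefore depends on scaling or on a library; the cause was not tested.

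Over all tested genes, 37 higher and 7 lower became 1 and 18 (centring), 50 and 342 (TMM-like), 5 and 4 (quantile), 0 and 0 (no filter, replicate block, and without HuR 3 and IgG 1), 145 and 21 (1 RPKM), 3 and 1 (pseudocount 1), 4 and 1 (no trend), and 728 and 8 (protein-coding), and ran from 0 to 724 and 0 to 35 with a library left out (0 and 0 without IgG 2, 724 and 17 without IgG 1). Same-numbered libraries correlated at 0.138, 0.117 and 0.086, so the numbers were not taken to pair them, though each correlated best with its own number and same-numbered column names share a letter (M, M and F); the replicate block called 0 proteasome genes. Against Input, the HuR RIP median ratio of 0.96 was 1.45 and 0.65 with pseudocounts of 0.1 and 1, 0.34 over all members and -0.30 with centring, where 1 gene was above Input in all 3 libraries. The IgG RIP count above Input ran from 4 to 5 with a library left out. In the main fit the 31 members below the filter were not tested. Without a filter, 48 members were fitted and 0 were called in either direction. Their median log2 fold change there was 0.61, against 0.09 over all 28263 genes with a RIP read, which include genes that are not protein-coding. A median over protein-coding genes alone was not taken without the filter, so this difference does not set the group apart. In the main fit the median was 0.82 over the 18 tested members and 1.08 over the tested protein-coding genes.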
